A study of Caenorhabditis elegans with 12 samples.

Results

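Promoter accessibility was compared between *met-2 set-25* and *set-25* muscle, that is, after the loss of *met-2* in animals that already lacked *set-25*. The members are the promoter windows of the deposited ATAC-seq count table that held a count above 0 in at least 1 of the 6 libraries of these genotypes, 51275 of 51519 windows, of which 51281 had a count in any of the 12 libraries of the series. The rule used detection only and no difference between the genotypes. ATAC-seq uses the Tn5 transposase to insert sequencing adaptors into accessible DNA, so that the number of reads in a window reports how open it is. The cells were RFP-positive body-wall muscle cells sorted from L3 larvae of *Caenorhabditis elegans*.

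The *met-2 set-25* animals carried met-2(n4256) and set-25(n5021), both on chromosome III, and the *set-25* animals carried set-25(n5021) alone, so the *set-25* lesion was present in all 6 libraries. For sorting, the strains carry *gwIs4*, an array on X whose *myo-3* promoter drives RFP in muscle and which also holds *baf-1* promoter and *let-858* 3′UTR sequence. The array therefore adds reads to the windows of these source genes. There were 3 libraries per genotype, with column totals of 84807679 to 102572232 counts in *met-2 set-25* and 68843022 to 78074609 in *set-25*. The *met-2* and WT libraries of the series, 3 each, serve as a separate measurement of *met-2* loss with *set-25* intact, and the labels describe that WT as N2. It is not fully independent, since some of these libraries deviated together with the *met-2 set-25* library of the same number, as given at the end. The growth label gives fewer independent biological replicates than there are libraries, whereas the paper states 3 independent biological replicates for its ATAC-seq. The p-values measure the spread between these libraries, which by the label may in part be technical.

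Methylation of histone H3 on lysine 9 (H3K9me) marks heterochromatin. MET-2 is a SETDB1-like methyltransferase that deposits H3K9me1 and H3K9me2, and SET-25 deposits H3K9me3. In worms H3K9me is concentrated on the distal arms of the autosomes, where it silences repeats and tissue-specific genes and, through the chromodomain protein CEC-4, tethers chromatin to the nuclear periphery. With *set-25* already lost, the removal of *met-2* takes away the remaining H3K9me1 and H3K9me2, and the comparison asks how far promoters open in its absence.

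After the loss of *met-2*, accessibility rose at 3912 windows (7.63% of those tested) and fell at 1931 windows (3.77%; quasi-likelihood test of edgeR, FDR < 0.01 after Benjamini-Hochberg adjustment). Most changes were of modest size: the higher windows had a median log2FC of 0.32 (quartiles 0.26 to 0.40) and the lower windows one of -0.25, against -0.06 for all windows. Only 5 higher windows and 1 lower window exceeded a log2FC of 1 in size. Neighbouring windows overlap and share reads, so the gains amount to 1627 loci (2883 genes) and the losses to 801 loci (1758 genes).

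The libraries also differed in how far signal stood above background, in the direction of the result. A signal index, the percentage of autosomal counts in the 5% of autosomal windows that were highest in WT (the 10 windows with most counts and combined windows left out), was 8.44, 9.69 and 8.74% in the *met-2 set-25* libraries, against 7.23, 7.28 and 7.27% in the *set-25* libraries. The groups did not overlap, with a difference of 1.70 percentage points (two-sided exact permutation test, p = 0.1, the smallest that 3 against 3 libraries can give). The *met-2* libraries had 8.07, 8.27 and 7.07%, against 7.55, 8.30 and 7.29% for the WT libraries, and these groups overlapped (exact p = 1.0). With the log2 of this index as a covariate, 9 windows remained higher and 1 was lower. Because the index and the genotype separate the same libraries, a difference in signal over background and a difference in accessibility at strong promoters cannot be told apart here.

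The counts also followed the scaling and single libraries. With TMM factors, 4824 windows were higher and 654 lower, and with DESeq2 5607 and 1202. Level-trended offsets, which remove from each library the part of its log ratio that follows the count level, gave 2152 higher (4.2% of windows) and 1034 lower windows (2.02%), of which 1628 and 264 were also called in the same direction without them and 0 in the opposite direction. Without *met-2 set-25* replicate 2, the library with the highest index, 1895 windows were higher and 254 lower. Without *set-25* replicate 1, 2 or 3 the higher windows numbered 2547, 2662 and 2792 and the lower windows 952, 816 and 686.

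The gains with the smallest FDR lay at genes of varied kind. At *Y47H10A.4* (I: 12094547-12096246, ce10), normalized counts were 3995, 4399 and 4087 in *met-2 set-25* muscle, against 2003, 2004 and 2007 in *set-25* muscle. The 3 double-mutant libraries were all higher and close to each other (log2FC 1.05 ± 0.08 (SE), FDR = 4.64e-15 by edgeR). The next window, *Y47H10A.5* (I: 12097779-12099478), had 3062, 3191 and 3041 counts in *met-2 set-25* muscle, against 1802, 1772 and 1869 in *set-25* muscle. Its log2FC was 0.77 ± 0.07 (FDR = 1.10e-12). Of the 10 windows that start within 20 kb of *Y47H10A.4*, only these and *rrf-2*, which encodes an RNA-dependent RNA polymerase-like protein and was chosen after its value was seen (log2FC 0.35), were called, and the median log2FC of the 10 was -0.04. *Y47H10A.4* and *Y47H10A.5* were also among the 9 windows that stayed higher with the signal index as a covariate, with log2FCs of 0.79 and 0.73.

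*T04C12.16*, a non-coding RNA gene (V: 11080407-11082106), had 1545, 2114 and 1645 counts in *met-2 set-25* muscle, against 959, 911 and 1009 in *set-25* muscle. Replicate 2 of the double mutant stood above the other two, but each exceeded every *set-25* library (log2FC 0.88 ± 0.09, FDR = 1.10e-10). It lies beside actin genes: of 36 windows within 20 kb, 12 were higher, beside 7.63% of all windows, and 0 lower. Among the 12, chosen after their values were seen, were *act-3* (0.33) and *act-2* (0.19), neither of which was called with level-trended offsets. Reads were counted without strand, so the promoters of such interleaved and antisense transcripts cannot be separated.

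*F44E5.4*, a gene of the inducible HSP70 family (listed at II: 11758077-11759776, with several intervals combined), had 1896, 2695 and 2080 counts in *met-2 set-25* muscle, against 1352, 1116 and 1335 in *set-25* muscle (log2FC 0.82 ± 0.08, FDR = 7.58e-11). A snoRNA gene on X, *W01H2.11* (X: 4222242-4223941), had 5274, 7136 and 6535 counts in *met-2 set-25* muscle, against 3516, 3844 and 3895 in *set-25* muscle (log2FC 0.75 ± 0.10, FDR = 6.54e-07). With level-trended offsets its log2FC was 0.24. The other leading gains were of 0.56 to 0.66 on the log2 scale. They lay at *B0403.6* on X, *21ur-3021*, which encodes a piRNA, on IV, *C01A2.2* on I, *R12B2.7* on III, and *sup-9* and the non-coding *F10E7.12* on II. *sup-9*, a subunit of a potassium channel of muscle, had 2408, 2623 and 2449 counts in *met-2 set-25* muscle, against 1596, 1587 and 1680 in *set-25* muscle (log2FC 0.62 ± 0.07, FDR = 1.88e-09).

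Among the called windows, the largest log2FCs were found at windows that combine several intervals. Under *mct-2* and *mct-1*, named for monocarboxylate transporters (V: 2377910-2379609 for the listed interval), the same counts of 810, 834 and 789 in *met-2 set-25* muscle stood against 249, 224 and 270 in *set-25* muscle (log2FC 1.71 ± 0.09, FDR = 7.60e-23). *srd-60*, a chemoreceptor gene (V: 2419781-2421480, combined), had 92.5, 101 and 86.1 counts in *met-2 set-25* muscle, against 27.98, 34.9 and 24.8 in *set-25* muscle (log2FC 1.67 ± 0.20, FDR = 1.63e-08). The order was reversed with *set-25* intact. *mct-2* had 212, 173 and 255 counts in *met-2*, against 922, 871 and 889 in WT, so that *met-2 set-25* resembled WT in level and *set-25* resembled *met-2*. These combined windows cannot be assigned to a place in the genome, and how reads with several matches were treated is not stated.

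**Figure D1:**
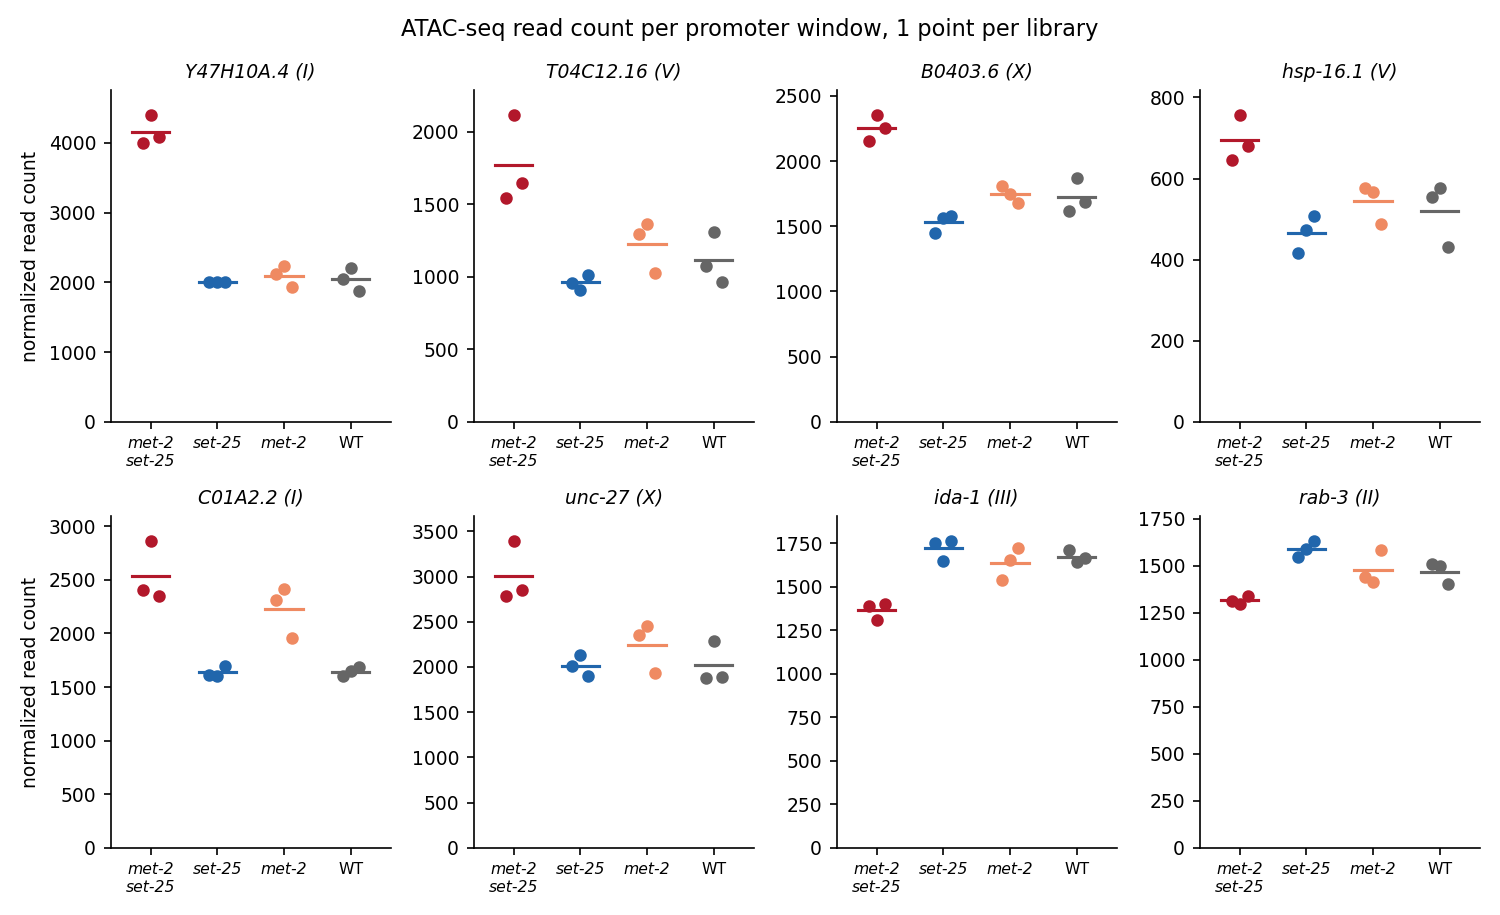
Normalized ATAC-seq read counts (vertical axis, from 0) at 8 promoter windows in each library of *met-2 set-25*, *set-25*, *met-2* and WT; points are libraries and bars are means of 3. At *Y47H10A.4*, *T04C12.16*, *B0403.6*, *hsp-16.1*, *C01A2.2* and *unc-27* all *met-2 set-25* libraries lie above all *set-25* libraries, and at *ida-1* and *rab-3* all lie below.

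Losses were smaller and more even, apart from 1 window. *Y58A7A.3* (V: 5081024-5082723) held 4, 0 and 0 raw counts in *met-2 set-25* libraries, against 1496, 1879 and 1686 in *set-25* libraries. Taking 3 counts per library as the floor, and the 4 counts where they exceeded it, the normalized count was at least 625-fold lower in *met-2 set-25*. The *met-2* libraries held 2 counts in all and the WT libraries 0, so *set-25* was the only genotype with signal at this window. The median window held 1511 normalized counts in the *met-2* and WT libraries. Whether the near absence of reads in the other genotypes reflects closed chromatin was not tested. Of the 18 windows within 20 kb, 7 were higher in *met-2 set-25*, beside 7.63% of all windows, and only *Y58A7A.3* itself was lower.

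*F35C11.6* (II: 8258961-8260660) had 1322, 1167 and 1390 counts in *met-2 set-25* muscle, against 1705, 1649 and 1709 in *set-25* muscle. All 3 were below every *set-25* library (log2FC -0.39 ± 0.06, FDR = 7.65e-06). *ida-1*, which encodes an IA-2-like protein of dense-core vesicles (III: 5753950-5755649), had 1392, 1307 and 1402 counts in *met-2 set-25* muscle, against 1751, 1650 and 1763 in *set-25* muscle (log2FC -0.33 ± 0.06, FDR = 1.79e-05). The other lower windows with the smallest FDR had log2FCs between -0.40 and -0.31. They included *eff-1*, the fusogen of epidermal cells (-0.31), *rbf-1*, a rabphilin of synaptic vesicles (-0.32), *arl-6*, a small GTPase of cilia (-0.34), *mlt-2* (-0.37), *F59B1.2* (-0.37), *lact-2* (-0.31), the non-coding *Y41E3.463* (-0.39) and *M195.5* (-0.33), and *21ur-3675*, a piRNA gene (-0.40). Each of these stayed called with level-trended offsets. Around *ida-1*, 7 of 11 windows within 20 kb, its own included, were lower and 0 higher, and around *mlt-2* 8 of 21 were lower and 0 higher. Around *F35C11.6* only 2 of 20 were lower and 0 higher. Over all windows 3.77% were lower, and overlapping neighbours share reads.

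Most of the change followed the level of the window. Windows were divided into 10 classes of equal size by their mean count in the *met-2* and WT libraries, which the comparison does not use. In the lowest class the median log2FC was -0.11 and 52 of 5128 windows were higher (1.01%), whereas in the highest it was 0.21 and 2229 of 5128 were higher (43.5%). The share of lower windows was largest in class 2 (7.08%) and fell to 0.176% in class 10. Class 10 held 2229 of the 3912 higher windows, and this number was 1141 without *met-2 set-25* replicate 2 and 1470 without *set-25* replicate 1.

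The slope was seen in each *met-2 set-25* library. The median of class 10 minus that of class 1, on the log2 scale and relative to the mean *set-25* library, came to 0.24, 0.42 and 0.26 for the *met-2 set-25* libraries, against 0.01, 0.00 and -0.02 for the *set-25* libraries. The groups did not overlap, with a difference of 0.31 (exact p = 0.1). For the *met-2* libraries it came to 0.15, 0.19 and -0.05, against 0.05, 0.21 and 0.01 for the WT libraries (difference 0.01, exact p = 1.0). The signal index moved with this slope, and its part in it was not tested. With level-trended offsets, which remove such a slope, 7.29% of the windows of class 10 were higher and 12.3% lower.

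**Figure D2:**
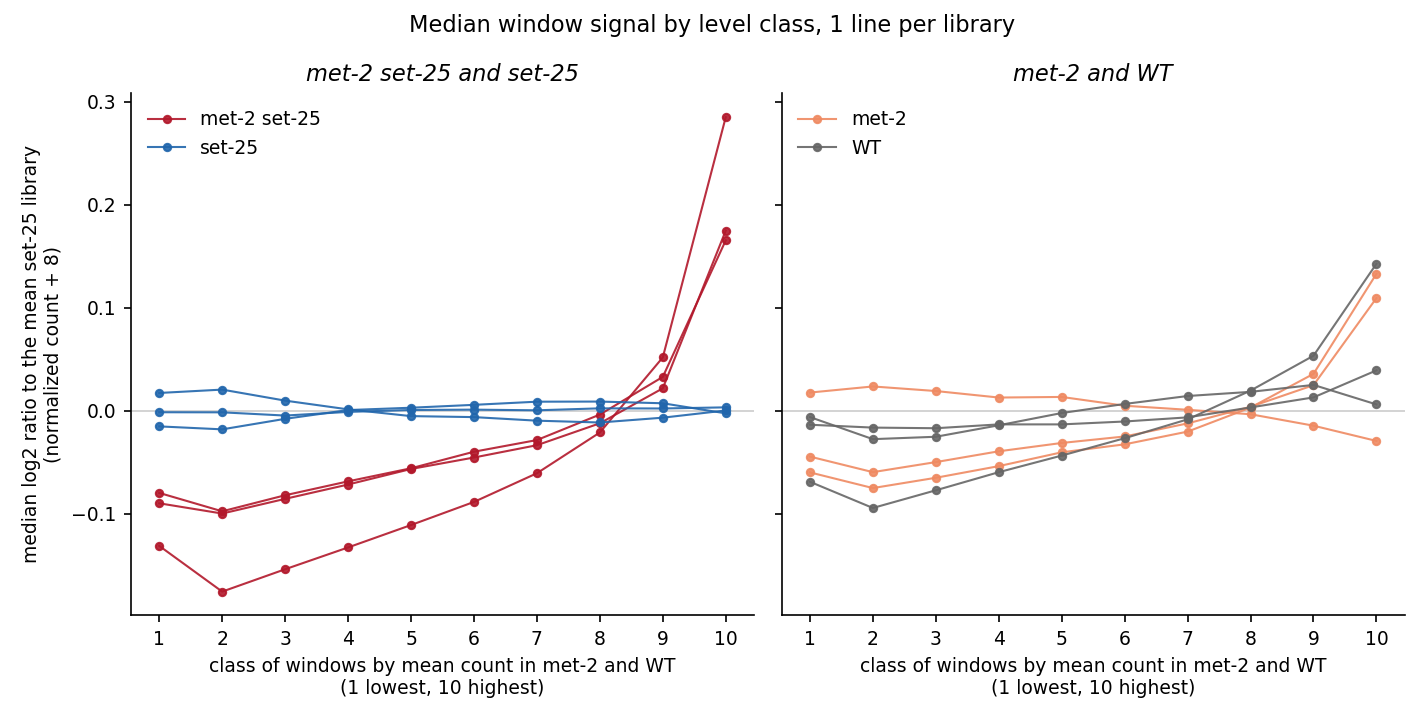
Median log2 ratio of each library to the mean *set-25* library (vertical axis, normalized count + 8) in 10 classes of windows by level (horizontal axis), with *met-2 set-25* and *set-25* on the left and *met-2* and WT on the right, 1 line per library. The *met-2 set-25* lines climb to between 0.17 and 0.28 in class 10, the *set-25* lines stay near 0, and the *met-2* and WT lines overlap.

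The X chromosome stood apart from the autosomes. In *C. elegans* hermaphrodites the dosage compensation complex, a condensin-based complex, lowers transcription from both X chromosomes. On X, 1267 of 6730 windows were higher (18.8%) and 12 lower (0.178%), whereas on the autosomes 2645 of 44545 were higher (5.94%) and 1919 lower (4.31%). With level-trended offsets, 12.7% of X windows were higher and 0.342% lower, against 2.92 and 2.27% of autosomal windows. Per library, X exceeded the autosomes in the median by 0.12, 0.12 and 0.10 for *met-2 set-25*, against 0.01, 0.02 and -0.03 for *set-25*. The groups did not overlap (difference 0.11, exact p = 0.1), and the difference lay between 0.10 and 0.12 with other scalings and without single libraries. With level-trended offsets the median log2FC was 0.08 on X and -0.02 on the autosomes. The *met-2* libraries gave 0.05, 0.04 and 0.02, against -0.01, 0.05 and 0.01 for the WT libraries, where the groups overlapped (exact p = 0.4).

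The X difference was present at every level. The median log2FC on X exceeded the autosomal median in each of the 10 level classes, from -0.04 on X against -0.14 on the autosomes in class 2 to 0.35 against 0.19 in class 10. In class 10, 79.5% of X windows were higher, compared with 40.0% of autosomal windows. It was also spread along the chromosome, since in bins of 1 Mb between 9.58 and 25.6% of X windows were higher. The share of all counts that fell on X was 14.1, 14.3 and 14.1% in *met-2 set-25* libraries, against 13.3, 13.3 and 12.97% in *set-25* libraries. Without *met-2 set-25* replicate 2, 699 X windows were higher, and with the signal index as a covariate 0 were called by edgeR in either direction, while at an unadjusted p under 0.05 669 were higher and 29 lower.

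**Figure D3:**
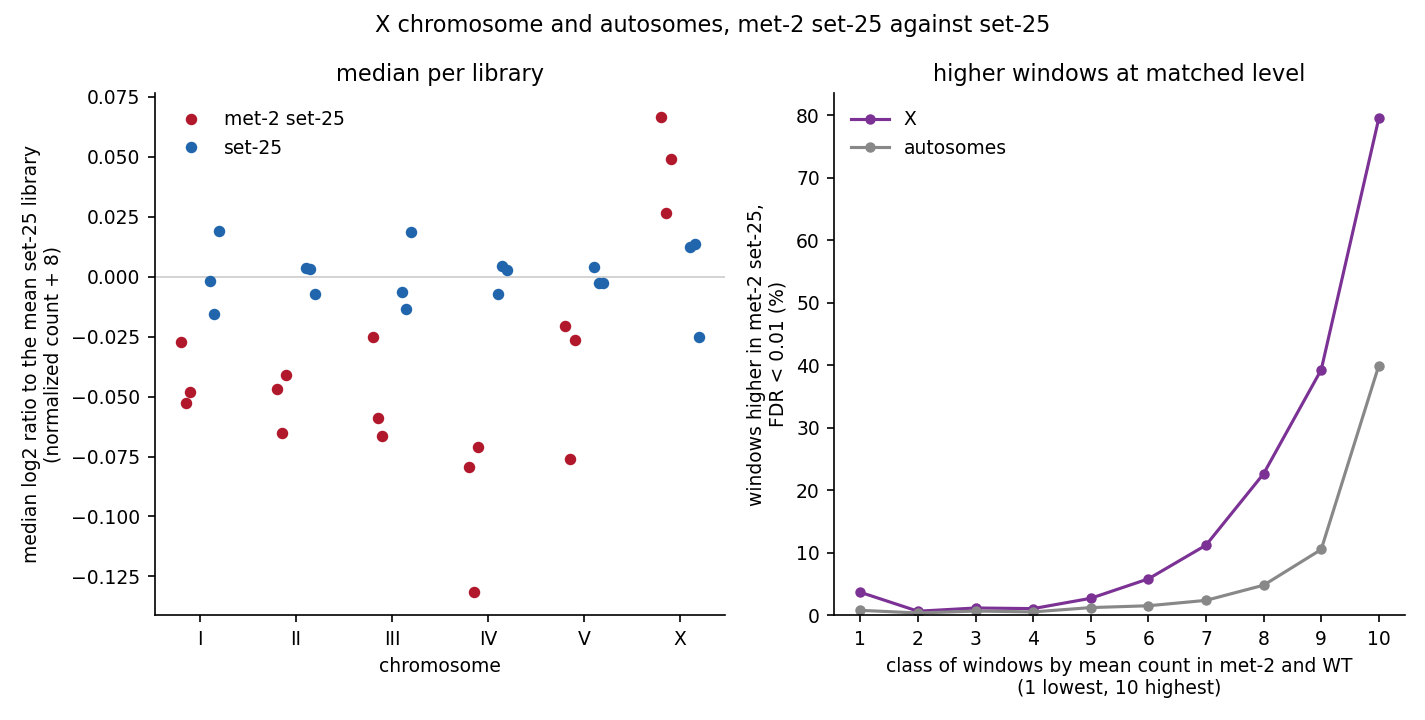
Left, median log2 ratio of each library to the mean *set-25* library (vertical axis) by chromosome for *met-2 set-25* and *set-25*, 1 point per library; right, percentage of windows higher in *met-2 set-25* at FDR < 0.01 (vertical axis) on X and on the autosomes by level class (horizontal axis). The *met-2 set-25* points lie above all *set-25* points on X only, and at class 10 79.5% of X windows and 40.0% of autosomal windows were higher.

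Among the autosomes, the share of higher windows was 8.30% on I, 6.55% on II, 6.24% on III, 4.37% on IV and 7.38% on V. The lower windows were most frequent on III (5.35%) and IV (5.11%) and least frequent on V (1.83%). The distal arms, where H3K9me is concentrated, did not hold more gains than the centres: 4.05% of the 29726 arm windows and 9.93% of the 14303 centre windows were higher, while 4.32 and 4.35% were lower. By chromosome, losses were less frequent on the arms than in the centres of I (2.96% against 5.83%), II (1.57% against 6.80%) and III (3.11% against 7.21%), and more frequent on the arms of IV (5.67% against 1.40%) and V (2.71% against 0.167%). Chromosome IV held 16782 of the 29726 arm windows. The median count was 1422 on the arms and 1628 in the centres, so the arms also held windows of lower level. With level-trended offsets, 2.73% of arm windows and 3.29% of centre windows were higher.

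Transcript classes differed in the same way. Of the windows of protein-coding genes, 8.05% were higher and 2.86% lower. Windows of piRNA genes, short transcripts of the germline that lie in clusters on IV, had the opposite balance, with 2.113% higher and 6.88% lower among 13394 windows. Their median count was 1360, below the 1511 over all windows, and with level-trended offsets 1.34% were higher and 1.02% lower. Windows of ncRNA (14.7%), miRNA (14.7%), snoRNA (13.6%) and lncRNA (13.1%) genes were higher more often than the background of 7.63%, and 2446 of the 7317 ncRNA windows lay on X. Within class 10, 45.1% of ncRNA windows and 44.1% of protein-coding windows were higher.

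Genes of body-wall muscle were the group with the largest share of gains among the lists examined. Of 166 windows of 47 muscle genes, 91 were higher (54.8%) and 0 lower, in 34 genes, with a median log2FC of 0.24. With level-trended offsets 45 windows were higher and 1 lower (median log2FC 0.08), and with the signal index as a covariate 0 were called by edgeR (4 higher and 5 lower at an unadjusted p under 0.05). *unc-27*, which encodes troponin I, had 2790, 3393 and 2849 counts in *met-2 set-25* muscle, against 2006, 2133 and 1897 in *set-25* muscle (log2FC 0.58 ± 0.08, FDR = 1.60e-06). *mup-2*, which encodes troponin T, had 2920, 3727 and 3096 counts in *met-2 set-25* muscle, against 2027, 2140 and 2216 in *set-25* muscle (log2FC 0.61 ± 0.09, FDR = 2.04e-06). *dim-1*, which encodes an immunoglobulin-domain protein of the sarcomere, had 3364, 4059 and 3665 counts in *met-2 set-25* muscle, against 2223, 2351 and 2433 in *set-25* muscle (log2FC 0.66 ± 0.10, FDR = 1.94e-06). All 3 lie on X, and in each the *met-2 set-25* libraries were all higher, with replicate 2 the highest. With level-trended offsets all 3 stayed called, with log2FCs of 0.30, 0.27 and 0.25.

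*myo-3*, the muscle myosin heavy chain whose promoter is repeated in the reporter array, had 436682, 487639 and 453042 counts in *met-2 set-25* muscle, against 349121, 354524 and 352936 in *set-25* muscle (log2FC 0.38 ± 0.03, FDR = 7.59e-13). Its level is that of the array and the endogenous promoter together, and its log2FC was 0.67 with level-trended offsets. Its mean count in the *met-2* and WT libraries, 369261, was the highest of all windows. No window outside V exceeded 106589. Few windows of similar level thus set the offset there, so the value of 0.67 is uncertain. Without *myo-3*, 90 of 165 muscle windows were higher, and their summed normalized counts were 365325, 406084 and 370217 in *met-2 set-25*, against 311092, 315121 and 313049 in *set-25*. The group was one of strong promoters, with 97 of its windows in class 10, of which 70 were higher, compared with 21 of the 69 in classes 1 to 9. On X 14 of 16 muscle windows were higher, and on the autosomes 77 of 150. A larger share of muscle cells among the sorted cells and a change within muscle cells cannot be told apart.

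Few windows of markers of other tissues were called. In the pharynx, intestine, hypodermis and seam, and germline lists, 0 of 15, 0 of 16, 1 of 42 and 2 of 30 windows were higher and 0 were lower by edgeR. Over all windows 7.63% were higher and 3.77% lower. The germline share of 6.67%, with both windows in 1 gene, was near the former. At an unadjusted p under 0.05, 3 pharynx and 3 intestine windows were lower and 0 higher, where 25.5% of all windows were lower and 13.9% higher, and DESeq2 also called 0 in these lists. The exceptions were *ajm-1*, a protein of epidermal apical junctions on X (log2FC 0.34 ± 0.07, and 0.16 with level-trended offsets, not called), and *spo-11*, the endonuclease of meiotic breaks (0.32 ± 0.08, and -0.03 with level-trended offsets). Of 86 windows of neuronal genes 2 were higher and 9 lower (10.5%), and 36 of them lay lower in all *met-2 set-25* libraries than in any *set-25* library, as did 27.6% of all windows. Their summed normalized counts were 129922, 127446 and 130590 in *met-2 set-25*, against 136394, 137251 and 135830 in *set-25*. With level-trended offsets 3 neuronal windows were lower and 0 higher.

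*rab-3*, a GTPase of synaptic vesicles, had 1312, 1296 and 1337 counts in *met-2 set-25* muscle, against 1547, 1587 and 1630 in *set-25* muscle (log2FC -0.27 ± 0.06, FDR = 5.95e-04; not called with level-trended offsets, -0.20). *eat-4*, the vesicular glutamate transporter, had 1440, 1455 and 1400 counts in *met-2 set-25* muscle, against 1757, 1678 and 1737 in *set-25* muscle (log2FC -0.27 ± 0.06, FDR = 3.06e-04). *tph-1*, the enzyme of serotonin synthesis, also fell (-0.25 ± 0.06, and -0.17 with level-trended offsets, not called), with 1286, 1264 and 1391 counts in *met-2 set-25* muscle, against 1570, 1654 and 1443 in *set-25* muscle. No window of these marker lists was at 0 in any library, and the lowest stood at 182 normalized counts.

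Heat shock genes were the other group with many gains. Of 32 windows 11 were higher (34.4%) and 0 lower, in 9 of 24 genes, and 9 were higher with level-trended offsets. The count fell to 5 without *met-2 set-25* replicate 2, and to 7, 6 and 7 without *set-25* replicate 1, 2 and 3. With the signal index as a covariate 0 were called higher, as for the muscle list. *hsp-16.1*, a small heat shock protein gene (V: 9087588-9089287), had 646, 757 and 680 counts in *met-2 set-25* muscle, against 417, 472 and 508 in *set-25* muscle. The groups did not overlap (log2FC 0.58 ± 0.09, FDR = 3.12e-06). *hsp-16.11* and *hsp-16.49* of the same cluster, whose windows combine near-identical copies and share reads, gained 0.58 and 0.47, and *hsp-25* on X gained 0.39. Unlike the muscle genes, the *hsp-16* windows lay in the lowest level class.

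Of 18 windows of 12 genes of the H3K9me pathway, 2 were higher (11.1%, against 7.63% of all windows) and 0 lower. They were *lin-13*, which encodes a zinc-finger partner of the HP1-like HPL-2 (log2FC 0.39 ± 0.08, FDR = 1.42e-04), and *cec-4* (0.25 ± 0.07, FDR = 0.00487). Neither was called with level-trended offsets (0.10 and 0.07). The *met-2* window had 1752, 1665 and 1831 counts in *met-2 set-25*, against 1876, 1703 and 1906 in *set-25*, and was not called (log2FC -0.06 ± 0.06, FDR = 0.423). The *set-25* window had 565, 595 and 566 counts in *met-2 set-25*, against 474, 514 and 482 in *set-25* (0.23 ± 0.08, FDR = 0.0253), and was called with level-trended offsets (0.31). Where the deletions lie relative to these windows is not given in the sources used here, so the windows do not check the genotypes.

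Of 16 windows of 12 dosage compensation genes 4 were higher (25%, against 7.63% of all windows) and 0 lower. On X 3 of the 6 windows of the list were higher, where 18.8% of all X windows were. *sdc-2*, which directs the complex to X in hermaphrodites, had a log2FC of 0.32 ± 0.07, *sdc-1* of 0.30 ± 0.06 and *dpy-27*, a condensin subunit, of 0.23 ± 0.06. With level-trended offsets *sdc-1* and *dpy-27* were called and *sdc-2* was not (0.10). Of 11 windows of nuclear envelope genes 2 were higher, both of *unc-84*, a SUN-domain protein that anchors nuclei (X: 13583205-13584904; 0.44 ± 0.08, FDR = 2.72e-05; 0.17 with level-trended offsets, not called), with 2563, 2907 and 2683 counts in *met-2 set-25* muscle, against 1950, 1986 and 2071 in *set-25* muscle. *lmn-1*, the only lamin of the worm, was not called (0.16 ± 0.06, FDR = 0.0447).

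The study names transcription factors at enhancers and behind derepression, and genes derepressed without H3K9me. Of the enhancer factors, 5 of 22 windows were higher (22.7%, against 7.63% of all windows) and 0 lower, at *daf-12*, a nuclear hormone receptor of developmental timing (0.35 ± 0.06), and *nhr-48* (0.46 ± 0.09, and 0.13 with level-trended offsets, not called), both on X. Of the 22 windows 14 lay on X, where 18.8% of all windows were higher. With level-trended offsets 2 of the 22 were higher. Of the factors behind derepression, 2 of 11 windows were higher (18.2%, against 7.63% of all windows) and 0 lower, at *madf-9* (0.53 ± 0.10) and *zip-11*, a bZIP factor (0.27 ± 0.07). *madf-9* was not called with level-trended offsets (0.06), and *zip-11* was (0.35). Of the 7 windows of derepressed genes 0 were called in either direction by edgeR or DESeq2. At an unadjusted p under 0.05 in edgeR 0 were higher and 3 lower, beside 25.5% of all windows lower. Likewise 3 lay lower in all *met-2 set-25* libraries than in any *set-25* library, as did 27.6% of all windows. *pgl-1*, a component of germline P granules, had 1502, 1465 and 1604 counts in *met-2 set-25* muscle, against 1654, 1606 and 1482 in *set-25* muscle, and the groups overlapped (-0.05 ± 0.06, FDR = 0.512). *pals-30* had 1080, 1097 and 1136 counts in *met-2 set-25* muscle, against 1229, 1220 and 1284 in *set-25* muscle (-0.17 ± 0.07, FDR = 0.0645), and *pals-29* had 1234, 1109 and 1201 in *met-2 set-25* muscle, against 1315, 1359 and 1339 in *set-25* muscle (-0.18 ± 0.07, FDR = 0.0474). These lists were chosen by the study on related samples, so that they are not independent of them. The 7 windows are those of a few named genes. The paper reports many more derepressed genes in *met-2 set-25* muscle. It found gains of promoter accessibility at a minority of them, measured against WT and not against *set-25*. The 7 windows do not speak for that set.

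In 5 large gene families the share of gains was below the 7.63% of all windows. The share of losses was above the 3.77% of all windows in chemoreceptors, C-type lectins and neuropeptides, and below it in F-box and cuticle collagen genes. Of 1450 chemoreceptor windows 18 were higher (1.24%) and 80 lower (5.52%), of 276 C-type lectin windows 3 and 15 (5.43%), of 341 F-box windows 2 and 5 (1.47%), of 163 neuropeptide windows 2 and 8 (4.91%), and of 180 cuticle collagen windows 1 and 3 (1.67%). The median count per window was 1456 to 1585 in these families. With level-trended offsets 14 chemoreceptor, 15 C-type lectin, 7 F-box, 2 neuropeptide and 9 cuticle collagen windows were lower. The share lower was then below the 2.02% of all windows in chemoreceptors and neuropeptides, and near it in F-box genes. It was above it in cuticle collagens and C-type lectins, so the order of the families depended on the offsets. For C-type lectins the number lower was 15 with and without them. Nuclear hormone receptors lay near the shares of all windows, with 28 of 414 higher (6.76%) and 17 lower (4.11%). So did homeobox genes, with 8 of 95 higher (8.42%) and 4 lower (4.21%). *nhr-49*, a regulator of fat metabolism, gained 0.45 ± 0.08 (0.14 with level-trended offsets, not called), *nhr-119* gained 0.39 ± 0.06, and *ceh-8* fell by 0.34. Of 94 windows of MATH and BATH genes 17 were higher, but all belonged to *math-33* (0.27 ± 0.06), a deubiquitinase, and *bath-40* (0.23 ± 0.06). Ribosomal protein genes had 5 of 84 windows higher and 1 lower, and histone genes 3 of 63 and 1.

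**Figure D4:**
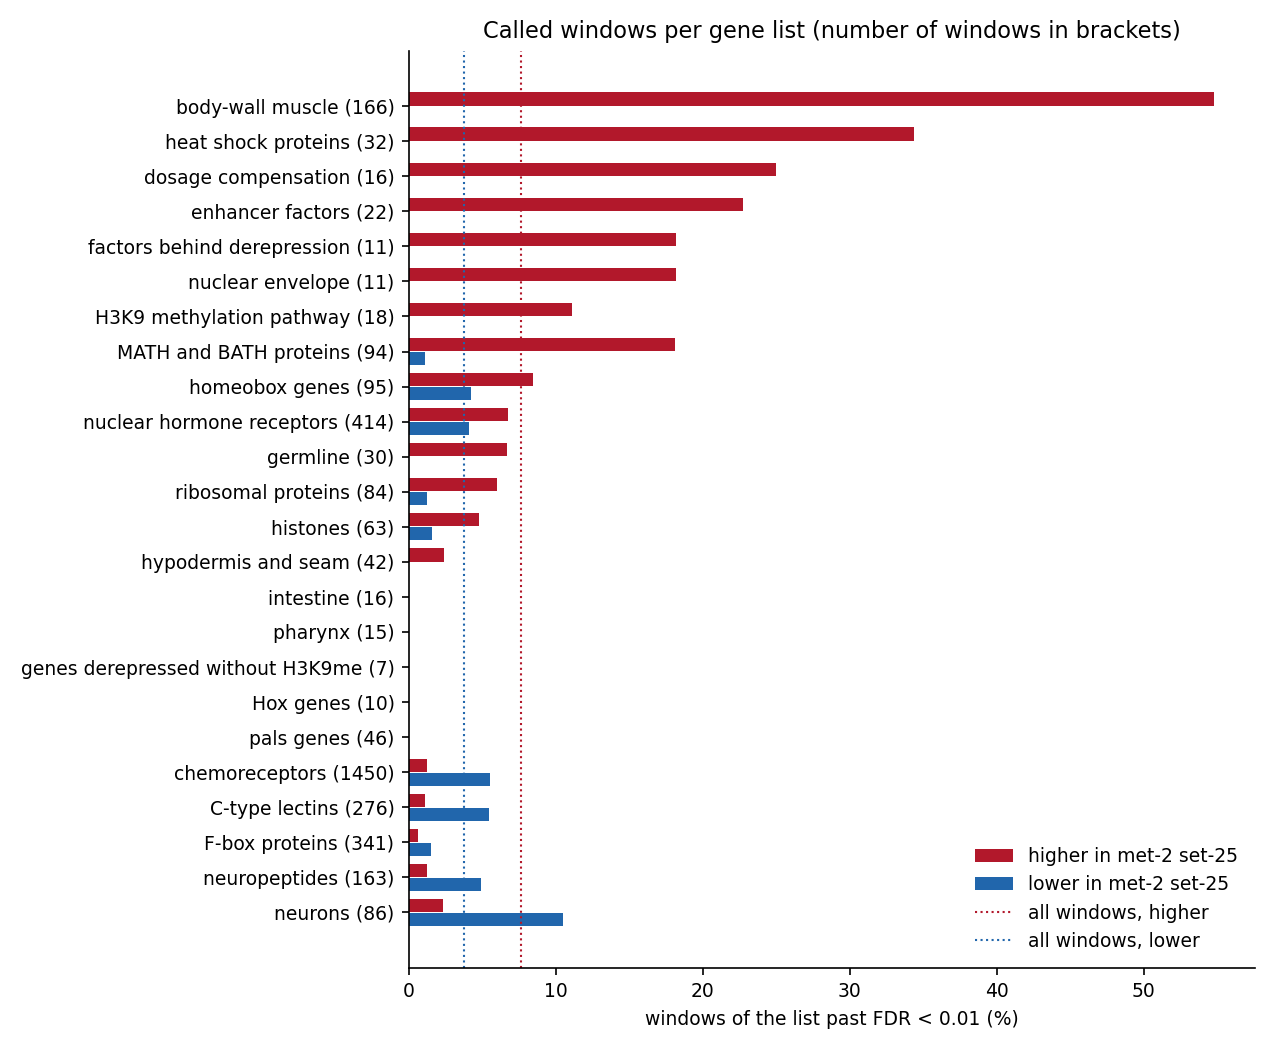
Percentage of the windows of each gene list (horizontal axis) that were called in *met-2 set-25* against *set-25* at FDR < 0.01, higher and lower, with the number of windows in brackets; dotted lines mark the percentages over all windows, 7.63 and 3.77%. Of the 24 lists drawn, body-wall muscle (54.8% higher) and heat shock genes (34.4% higher) lie farthest above the line, and neurons (10.5% lower) have the largest share of losses. The sources of the reporter array, with 1 of 2 windows higher, and 4 further lists are not drawn.

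The *met-2* and WT libraries measure the same loss with *set-25* intact and share no library with the comparison above. At the 3912 higher windows the median log2FC of *met-2* over WT was 0.05, and 78.7% of them were above 0, against 49.7% of all windows. By library, the *met-2* medians over these windows were 0.10, 0.12 and -0.08, against -0.03, 0.10 and -0.07 for WT, so the groups overlapped (difference 0.05, exact p = 0.7). At the 1931 lower windows the medians of the groups also overlapped (difference -0.01, exact p = 0.9). At the 1034 windows lower with level-trended offsets they did not, with -0.03, -0.03 and -0.03 for *met-2*, against -0.01, 0.00 and 0.02 for WT (exact p = 0.1). Of these windows 224 combine several intervals, which these offsets suit badly. Medians over whole chromosomes separated *met-2* from WT as well. They were lower in *met-2* on I (difference -0.032) and III (-0.035) and higher on V (0.015; exact p = 0.1 each). On II, IV and X the groups overlapped.

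Single windows were called in *met-2* over WT as well. Over all windows 36 were higher (0.0702%) and 16 lower (0.0312%), and of the windows higher in *met-2 set-25* 18 were among the higher and 5 among the lower. At *C01A2.2* the *met-2* libraries had 2315, 2414 and 1955 counts and the WT libraries 1599, 1645 and 1687, a log2FC of 0.44 ± 0.07 (FDR = 1.36e-04), where the loss in *set-25* mutants gave 0.63 ± 0.07. *sup-9* (0.35 ± 0.07), *R12B2.7* (0.36 ± 0.07) and *F10E7.12* (0.29 ± 0.06) were also called in *met-2* over WT, and the difference between the effects was not called at any of these windows (interaction FDR between 0.0338 and 0.239). At these promoters the gain was seen with and without *set-25*.

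The difference between the 2 effects of *met-2* loss was called at 54 windows in the positive direction (0.105%) and 20 in the negative (0.039%). The 54 lay at 34 loci. Of them 15 combine several intervals, beside 560 of all 51275 windows, and 15 were called lower in *met-2* over WT. The 20 lay at 13 loci, and 16 of them were called higher in *met-2* over WT. The positive windows numbered 146 without *met-2 set-25* replicate 1, 29 without its replicate 2 and 32 without *set-25* replicate 2. *Y47H10A.4* had 2117, 2232 and 1932 counts in *met-2*, against 2053, 2203 and 1880 in WT, so that its gain was seen in *set-25* mutants and not with *set-25* intact (interaction 1.02 ± 0.11, FDR = 3.84e-09). The same test was passed by *Y47H10A.5* (0.85 ± 0.10), *T04C12.16* (0.75 ± 0.13), *F44E5.4* (0.69 ± 0.11), *21ur-3021* (0.64 ± 0.11), *B0403.6* (0.55 ± 0.08) and *myo-3* (0.30 ± 0.05). *Y17D7C.6* had 2483, 2296 and 2427 counts in *met-2 set-25*, against 3185, 3137 and 3095 in *set-25*. The *met-2* libraries had 3876, 3831 and 4002 counts, against 2578, 2544 and 2643 for WT. Counts were thus lower after *met-2* loss in *set-25* mutants and higher after *met-2* loss with *set-25* intact (interaction -0.98 ± 0.12, FDR = 1.25e-08). *Y17D7C.2* and *Y17D7C.1* beside it on V showed the same order. Whether these steps between the genotypes reflect accessibility was not tested.

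**Figure D5:**
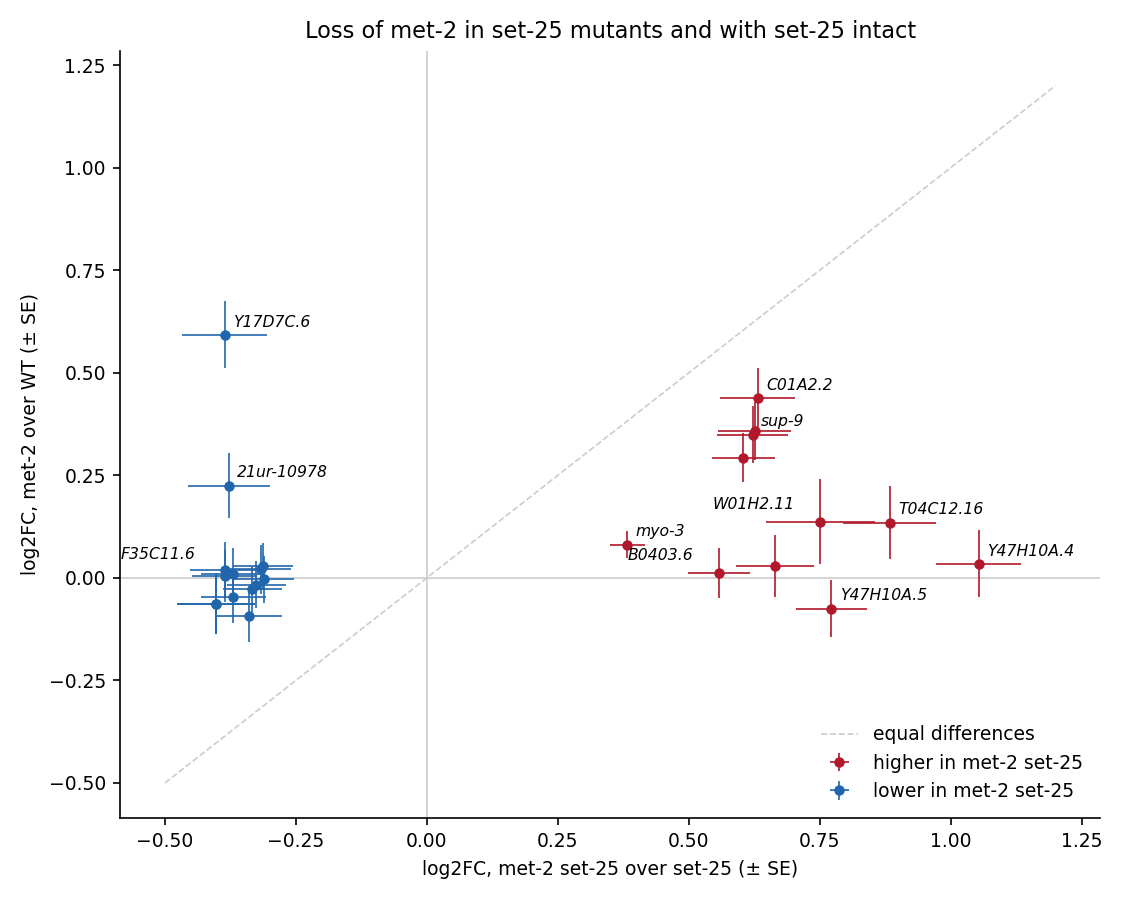
log2FC of *met-2* over WT (vertical axis) against that after *met-2* loss in *set-25* mutants (horizontal axis) for the named single-interval windows with the smallest FDR or the largest change, with bars of 1 SE; *Y58A7A.3* is left out. *C01A2.2*, *sup-9*, *R12B2.7* and *F10E7.12* were higher in both, *Y47H10A.4* lay at 1.05 on the horizontal and 0.03 on the vertical axis, and *Y17D7C.6* changed in opposite directions.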

How the data were processed

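ATAC-seq libraries were compared between genotypes given by the sample labels, 3 *met-2 set-25* against 3 *set-25*. The authors trimmed adaptors with cutadapt, aligned reads to ce10 with bowtie2, removed duplicates with Picard, split pairs into single reads with bedtools 2.26, shifted them by +4 and -5 bp for Tn5 and counted them without strand. The deposited counts are whole numbers, not normalized, over windows of 1500 bp upstream and 200 bp downstream of RefSeq transcription start sites. Of the windows, 560 combine several intervals, which level-trended offsets suit badly: 40.0% of them were lower under these offsets. Column totals sum overlapping windows and are not sequencing depth. The treatment of reads with several matches is not given in the sources used here.

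Normalized counts were scaled to the mean column total of the 12 libraries. The test was edgeR's two-sided quasi-likelihood test (version 4.0.16, R 4.3.3), 1 fit of 12 libraries, with genotype as the only term and no filter or TMM factors, and p-values were adjusted by Benjamini-Hochberg over 51275 windows. SE is the log2FC divided by the root of F. Class medians used log2(normalized count + 8) and exact permutation tests over libraries. Level-trended offsets came from a loess fit (span 0.3) per library. Replicates differed by more than sampling noise (chi-square per window 3.24 to 7.02). A floor of 3 counts covers counting error only. The procedure was tested on simulated counts with 200 changed windows. All simulated libraries shared a common mean profile, without a slope by level or a difference in signal index. The simulation therefore does not cover those features of the real libraries.

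Alternatives were TMM factors, DESeq2 1.42.0, filterByExpr, the 6 libraries alone, a replicate block, an FDR of 0.05, the signal index as a covariate, level-trended offsets, each library left out, distinct counts only, a pseudocount of 1 and windows of at least 100 counts. Windows without combined intervals, the block with other settings, the trended fit without single libraries, settings for the interaction and for lists, the block for *met-2* against WT and 20 kb neighbourhoods were added after the data were seen.

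Named windows are, 1 per locus, the 12 higher and 12 lower called windows with the smallest FDR, the 6 with the largest change and at least 500 counts, the 8 with the smallest FDR under trended offsets, up to 4 called members, the leading gene and the member with the smallest p of each list, and genes of the study. The members, lists and alternatives were chosen with earlier results of these data known. Names and classes come from the RefSeq WBcel235 annotation, matched by transcript for 49189 windows, and coordinates are those of the table. The *baf-1* window was not matched, and no sequence was used here.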

Additional observations from a re-analysis of the deposited data

Results flagged for a closer look

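At 14 named windows the effect of *met-2* loss in *set-25* mutants differed from its effect with *set-25* intact (edgeR interaction test, Benjamini-Hochberg FDR < 0.01). The difference between the effects, on the log2 scale, was 3.79 at *mct-2*, 3.57 at *srd-60*, 1.02 at *Y47H10A.4*, 0.85 at *Y47H10A.5*, 0.75 at *T04C12.16*, 0.69 at *F44E5.4*, 0.64 at *21ur-3021*, 0.55 at *B0403.6* and 0.30 at *myo-3*. It was negative at *Y17D7C.6* (-0.98), *Y17D7C.1* (-0.91), *Y17D7C.2* (-0.89) and *21ur-10978* (-0.60). The fitted value of -13.04 at *Y58A7A.3* depends on how counts of 0 are treated and gives no size. The *mct-2*, *srd-60* and *F44E5.4* windows combine several intervals, and the *myo-3* window takes in reads of the reporter array.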

How the results depend on the processing

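The numbers of higher and lower windows changed with the processing, and the cause was not tested. The index as a covariate gave 9 higher and 1 lower (*rrn-2.1*, an rRNA gene, which was higher without it), and level-trended offsets 2152 and 1034 (1015 to 1998 and 417 to 875 without single libraries). The lower windows numbered 6998 at an FDR of 0.05, 654 with TMM factors, 1202 with DESeq2 and 3319 with the 6 libraries alone. Without single libraries 1895 to 3540 windows were higher and 254 to 1464 lower, and with the fits that leave out 1 replicate number in all 4 genotypes counted too the ranges were 1676 to 3631 and 225 to 1464. The interaction was called at 1141 positive and 538 negative windows at an FDR of 0.05, 18 positive with the index, 84 and 94 with level-trended offsets, 29 to 146 positive without single libraries and 19 positive without replicate number 2 in all genotypes.

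Same-numbered *met-2 set-25* and *set-25* libraries did not deviate together (r = -0.01, 0.01 and -0.05 over 51187 windows), and 2 of these 6 libraries correlated best with their own number. Between *met-2* and WT r was -0.08, 0.38 and 0.30 for replicates 1, 2 and 3, for the double mutant with *met-2* it was -0.16, 0.39 and 0.25, and for the double mutant with WT 0.09, 0.40 and 0.12. It lay between -0.04 and 0.04 for *set-25* with *met-2* or WT. In no pair of genotypes were all 3 above 0.1, so the numbers were not taken to pair the libraries, although replicates 2 and 3 of the genotypes other than *set-25* had r above 0.1. With a replicate block 4662 windows were higher and 3322 lower (1137 and 266 for the interaction, 46 and 21 for *met-2* against WT). The replicate block gave 3388 lower windows in the 6 libraries, and with level-trended offsets it gave 2396 and 1192 (199 and 219 for the interaction).

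Medians moved as follows. With TMM factors the median log2FC was -0.012 over all windows, 0.087 on X, -0.027 on the autosomes, -0.041 on the arms, 0.0062 in the centres, 0.0047 for protein-coding genes, 0.047 for ncRNA, -0.077 for piRNA, 0.091 for snoRNA, -0.060 in level class 1 and 0.075 in class 9. With level-trended offsets it was -0.0072 over all windows, 0.081 on X, -0.020 on the autosomes, -0.019 on the arms, 0.00091 for protein-coding genes, -0.033 for piRNA, 0.0016 for snoRNA, -0.0019 in class 1, -0.016 in class 9 and -0.0085 in class 10. With the index as a covariate the sign turned at *met-2* (0.085), *lmn-1* (-0.048), *myo-2* (-0.061), *pgl-1* (0.11), *madf-9* (-0.059), *zip-11* (-0.056), *pals-29* (0.067), *his-42* (-0.095), *clec-126* (-0.042), *bath-40* (-0.023) and *hsp-16.49* (-0.019). With level-trended offsets it turned at *myo-2* (-0.038) and *spo-11* (-0.027), also with the block. Without single libraries *myo-2* lay between -0.0094 and 0.051. Of 98 called windows named or listed, 88 lost the call and 6 reversed with the index as a covariate, 34 lost it and 1 reversed with level-trended offsets, and 12 lost it with TMM factors and 35 without *met-2 set-25* replicate 2.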
